A study of Homo sapiens with 5 samples.

Results

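Wnt negative feedback regulators are genes that Wnt signalling switches on and whose products then restrain the same pathway. They were followed here in COLO 320DM, a human colorectal adenocarcinoma line known to carry a truncated APC and an amplified MYC locus. The set held 10 genes of the 60651 listed for each library, namely AXIN2, NKD1, NKD2, RNF43, ZNRF3, NOTUM, APCDD1, TNFRSF19, DKK1 and DKK4. They were taken by gene symbol and were chosen by their role with the read counts and TPM of these same libraries, USP17 siRNA against control siRNA, already known. Their differences between the groups are therefore a description: no p-value is printed for a member, and whether it passed the threshold of the test over all genes is stated without being read as support.

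Poly(A) RNA was sequenced from cells of that line transfected with siRNA against USP17, a deubiquitinase that the series links to beta-catenin, or with a control siRNA. The USP17 siRNA group had 3 libraries, each with its own siRNA label (siIDT, sino4 and siSMPLT). The control siRNA group had 2, labelled siL2 and siNT. Only siNT and L2 are named as non-silencing controls in the series description, so the remaining siRNAs were assigned to USP17 by elimination. All libraries shared the parental line, no genotype was changed, and the labels give no time after transfection, dose, siRNA sequence or batch. They also do not say whether a label stands for a pool of siRNAs. Each siRNA label was sequenced once and separate cultures are not stated, so spreads and p-values measure only how these libraries differ. That spread may be technical, and it takes in any effects particular to the siRNA behind each label.

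When Wnt binds a Frizzled receptor and the co-receptor LRP5 or LRP6, Dishevelled is recruited and the complex that marks beta-catenin for destruction is disabled. Beta-catenin then enters the nucleus and, with TCF and LEF factors, switches on target genes. Feedback acts at each step. NOTUM, DKK1 and DKK4 work outside the cell, RNF43, ZNRF3, APCDD1 and TNFRSF19 at its membrane, and NKD1, NKD2 and AXIN2 inside it. In the intestinal crypt many of these genes mark cells with active Wnt signalling, and several are high in colorectal tumours with APC mutations.

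Reads in genes numbered 31704821 to 32259474 in the USP17 siRNA libraries and 34320214 and 36276143 in the siL2 and siNT libraries. Reads on no gene's own strand were 7.05% to 7.49% of all reads with USP17 siRNA, against 6.37% and 6.58% with control siRNA. All 30 genes of the USP17L family, which encode USP17, had 0 reads on their own strand in all 5 libraries. RSEM's expected counts for them were also 0 in every library, so USP17 RNA was not detected with control siRNA either. The knockdown could therefore not be checked. The gut transcription factor CDX2 stood at 1631 to 1686 CPM (read counts scaled to library size, with TMM factors) with USP17 siRNA and 2007 to 2098 CPM with control siRNA. CDH17, an intestinal cadherin, went the other way, at 47.7 to 52.0 CPM with USP17 siRNA and 27.1 and 27.3 CPM with control siRNA. Of the other epithelial markers, KRT8 was at 62.3 to 69.8 CPM with USP17 siRNA and 76.6 and 76.8 CPM with control siRNA, and KRT18 at 59.97 to 65.4 CPM with USP17 siRNA and 61.8 and 76.4 CPM with control siRNA. VIL1 was at 0.22 CPM or less, EPCAM at 1.96 to 2.75 CPM over all libraries and CDH1 at 0.18 CPM or less. Of the neuroendocrine markers, INSM1 was at 0, CHGA at 0.06 CPM or less and SYP at 0.96 to 2.21 CPM. CHGB was at 0.76 to 1.56 CPM over all libraries, and ENO2 was the highest of them at 4.06 to 7.28 CPM. PTPRC, a leukocyte marker, was at 44.4 to 49.2 CPM with USP17 siRNA and 41.7 and 51.7 CPM with control siRNA. The other leukocyte, fibroblast and endothelial markers were each at 16.9 CPM or less, led by COL1A1.

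Most of the set was lower with USP17 siRNA. Of the 10 genes, 9 passed the filter on low counts and DKK4 did not. The edgeR quasi-likelihood test was adjusted over all 16341 genes tested, and at a threshold of 0.05 there were 5 members lower (TNFRSF19, NKD2, NKD1, AXIN2 and ZNRF3) and none higher. Among all genes tested 10.5% passed, 5.82% lower and 4.64% higher. Because the genes were chosen with this contrast known, nothing is read from that count. In 7 of the 9 genes every USP17 siRNA library lay below both control libraries, as in 22.6% of all genes tested. The median log2 fold change of the 9 was -0.49, against 0.01 over all genes tested. In bulk RNA, fewer cells of a type and less RNA per cell cannot be told apart.

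**Figure D1:**
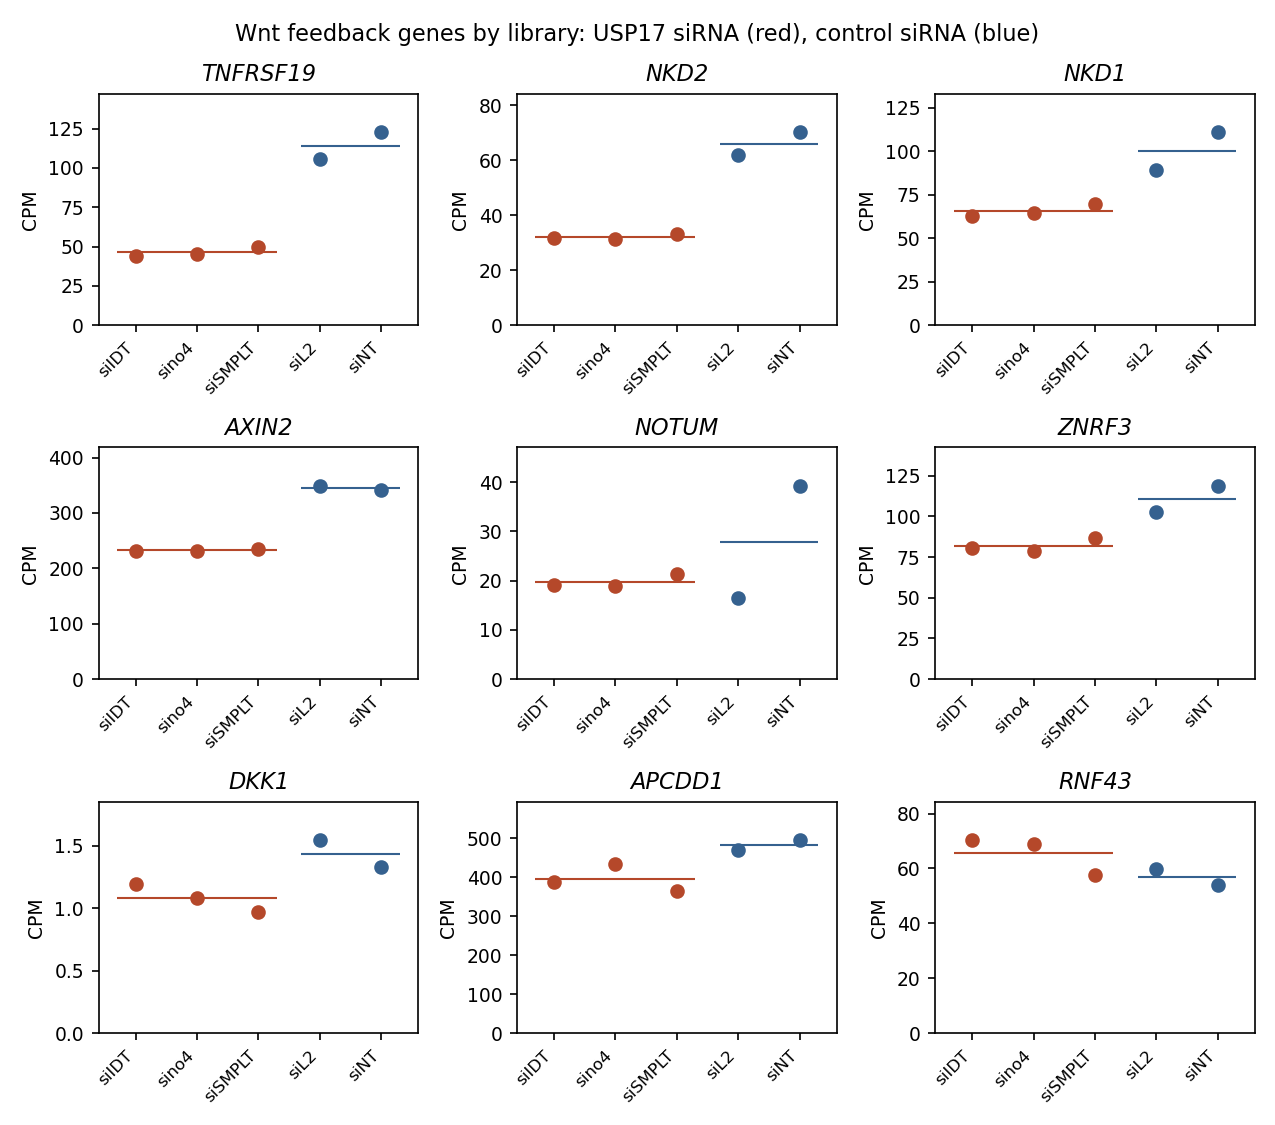
CPM of each measured Wnt feedback gene (vertical axes, from 0) in the USP17 siRNA libraries (red points: siIDT, sino4, siSMPLT) and the control libraries (blue points: siL2, siNT), with lines at the group means. The groups are apart in all panels except NOTUM, where siNT stands alone at 39.2 CPM, and RNF43, where siSMPLT lies between siL2 and siNT.

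TNFRSF19, which encodes TROY, a receptor of the tumour necrosis factor family that marks intestinal stem cells in mice and is reported to restrain Wnt signalling at the membrane, was the lowest of the set relative to controls. It had 43.7, 45.3 and 49.99 CPM in the siIDT, sino4 and siSMPLT libraries, against 105.3 and 122.7 CPM in siL2 and siNT. The USP17 siRNA libraries lay within 1.14-fold of each other, and the highest of them was under the lower control. The mean was 46.4 ± 3.24 CPM (SD, n = 3) with USP17 siRNA and 114 ± 12.3 CPM (SD, n = 2) with control siRNA. Its log2 fold change was -1.30 ± 0.10 (SE), or 40.7% of the control level, and ranked 54 from the lowest among the 16341 genes tested. Single pairs of a USP17 siRNA and a control library gave -1.49 to -1.07 on the log2 scale. The gene lies on chromosome 13 from 23570370 to 23676104 on the plus strand (GRCh38, GENCODE 29).

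NKD2 and NKD1 encode the Naked cuticle proteins, which bind Dishevelled and limit its signalling. NKD2 had 31.8, 31.4 and 33.05 CPM in siIDT, sino4 and siSMPLT, against 61.8 and 70.2 CPM in siL2 and siNT. Its USP17 siRNA libraries were nearly level with each other and all were under both controls. NKD2 averaged 32.1 ± 0.87 CPM (SD, n = 3) with USP17 siRNA and 66.0 ± 5.91 CPM (SD, n = 2) with control siRNA, a log2 fold change of -1.04 ± 0.09 (SE). NKD1 had 62.9, 64.2 and 69.8 CPM in the USP17 siRNA libraries in the same order, against 89.0 CPM in siL2 and 110.9 CPM in siNT. All USP17 siRNA libraries were below both controls here too, but the controls were 1.25-fold apart. The log2 fold change of NKD1 was -0.61 ± 0.10 (SE). Within a library, NKD2 counts were 0.474 to 0.505 times those of NKD1 with USP17 siRNA and 0.633 and 0.695 times with control siRNA. In TPM the ratio was 3.72, 4.16 and 4.39 in siIDT, sino4 and siSMPLT, against 5.60 and 4.63 in siL2 and siNT. Both genes were chosen with these values known, so the ratio is a description. The NKD1 call was lost in edgeR's test without siIDT (log2 fold change -0.58) and without sino4 (-0.59). NKD2 lies on chromosome 5 from 1008829 to 1038943, and NKD1 on chromosome 16 from 50548330 to 50649249, both on the plus strand (GRCh38).

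The start-site windows of the genes farthest below control, TNFRSF19 and NKD2, are shown together with that of DKK1, which alone held a searched motif. They come from RefSeq (GRCh38.p14) and run from 250 bases before to 50 after an annotated start, 5' to 3' on the gene's strand. RefSeq windows were at hand for 5 of the 10 genes, 7 windows in all (NKD2, APCDD1 and DKK1 with 1 each, RNF43 and TNFRSF19 with 2 each). Capitals mark a match to CTTTGAA or CTTTGAT, forms of the TCF/LEF binding motif, searched on both strands. The forms differ in their last base, so no site matches both.
NKD2, chr5:1008552-1008851, plus strand: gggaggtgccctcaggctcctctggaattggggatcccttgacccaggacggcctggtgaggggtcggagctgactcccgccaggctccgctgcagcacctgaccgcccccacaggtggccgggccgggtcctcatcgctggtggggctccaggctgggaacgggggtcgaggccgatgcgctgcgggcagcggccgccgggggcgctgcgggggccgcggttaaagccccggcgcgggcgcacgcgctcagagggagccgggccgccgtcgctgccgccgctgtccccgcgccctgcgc
TNFRSF19 upstream start, chr13:23570162-23570461, plus strand: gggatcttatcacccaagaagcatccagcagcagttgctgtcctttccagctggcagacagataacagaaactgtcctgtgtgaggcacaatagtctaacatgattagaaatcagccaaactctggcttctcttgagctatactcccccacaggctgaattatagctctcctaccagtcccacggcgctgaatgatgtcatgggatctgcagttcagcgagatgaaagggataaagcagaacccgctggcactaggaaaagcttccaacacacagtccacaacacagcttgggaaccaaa
TNFRSF19 downstream start, chr13:23579110-23579409, plus strand: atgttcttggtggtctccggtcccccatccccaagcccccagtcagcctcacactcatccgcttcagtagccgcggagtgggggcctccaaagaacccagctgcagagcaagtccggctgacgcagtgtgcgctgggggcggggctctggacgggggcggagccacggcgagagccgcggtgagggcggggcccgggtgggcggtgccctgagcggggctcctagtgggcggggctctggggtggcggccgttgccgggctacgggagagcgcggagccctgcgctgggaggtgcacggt
DKK1, chr10:52314031-52314330, plus strand: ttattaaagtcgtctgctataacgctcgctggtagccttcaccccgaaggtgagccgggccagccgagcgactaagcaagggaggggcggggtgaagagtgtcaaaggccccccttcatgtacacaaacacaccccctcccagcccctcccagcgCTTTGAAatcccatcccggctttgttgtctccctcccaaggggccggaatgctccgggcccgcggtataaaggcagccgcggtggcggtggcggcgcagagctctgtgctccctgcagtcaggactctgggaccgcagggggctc
The single match lay 95 bases before the start of DKK1, and the other 6 windows held none. Of 35116 promoter windows of this length, 6.86% held at least 1 match. No match says only that these letters are not in the window. The windows of NKD2 and of the downstream TNFRSF19 start were rich in G and C (77.0% and 72.7%, with 35 and 27 CG pairs), and that of the upstream TNFRSF19 start was not (49.0%, 4 pairs), where the median over all windows was 58.7% and 14 pairs.

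AXIN2, the scaffold of the destruction complex that beta-catenin itself induces, differed least among siRNAs. It had 232, 231 and 235 CPM in siIDT, sino4 and siSMPLT, against 348 and 342 CPM in siL2 and siNT. The USP17 siRNA libraries were within 1.01-fold of each other and the controls nearly as close, with a wide gap between the groups. The log2 fold change was -0.57 ± 0.06 (SE), and single pairs of libraries gave -0.59 to -0.54. AXIN2 lies on chromosome 17 from 65528563 to 65561647 on the minus strand (GRCh38). RSEM assigned it 1.42 to 1.47 times the reads of the count table in every library, where the median gene tested had 0.96 times. An unnamed protein-coding gene, AC004805.1, overlaps AXIN2 on the same strand in GENCODE 29 and held at most 1 read in any library. RSEM's TPM gave AXIN2 69.7% of its control level with USP17 siRNA, close to the 67.4% from the count table.

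RNF43 and ZNRF3 are related membrane ubiquitin ligases that remove Frizzled receptors from the cell surface, and R-spondins relieve that brake through LGR4, LGR5 and LGR6. ZNRF3 had 80.5, 78.6 and 86.6 CPM in siIDT, sino4 and siSMPLT, against 102 and 119 CPM in siL2 and siNT. All USP17 siRNA libraries were below both controls. Its log2 fold change was -0.43 ± 0.09 (SE), and its call was lost in edgeR's test without siIDT (-0.42) and without sino4 (-0.40). RNF43 had 70.3, 69.0 and 57.5 CPM in the USP17 siRNA libraries, against 59.9 CPM in siL2 and 53.9 CPM in siNT. Here siIDT and sino4 were above both controls, while siSMPLT lay between them. RNF43 had a log2 fold change of 0.21 ± 0.11 (SE), the only one above 0 in the set, and was not past the threshold. The RNF43 to ZNRF3 ratio of TPM was 6.77, 6.06 and 4.94 in siIDT, sino4 and siSMPLT, against 4.44 and 3.17 in siL2 and siNT. This ratio, picked after the values were seen, was higher in each USP17 siRNA library than in either control. RSEM assigned RNF43 3.49 to 3.65 times the reads of the count table, at a similar factor in both groups. SUPT4H1 and an unnamed protein-coding gene, AC004687.2, overlap RNF43 on the same strand in GENCODE 29, and their part in this gap was not tested. RNF43 lies on chromosome 17 from 58352500 to 58417595 on the minus strand, and ZNRF3 on chromosome 22 from 28883592 to 29057487 on the plus strand (GRCh38).

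APCDD1, a membrane glycoprotein that binds Wnt ligands and LRP co-receptors and blocks signalling, had 389, 434 and 365 CPM in siIDT, sino4 and siSMPLT, against 471 and 496 CPM in siL2 and siNT. Every USP17 siRNA library was below both controls, with sino4 nearest to them. Its mean was 396 ± 35.0 CPM (SD, n = 3) with USP17 siRNA and 483 ± 17.5 CPM (SD, n = 2) with control siRNA. The log2 fold change of -0.29 ± 0.08 (SE) was not past the threshold in edgeR's test, but was with DESeq2's Wald test (-0.29) and without siL2 (-0.33). APCDD1 lies on chromosome 18 from 10454628 to 10489948 on the plus strand (GRCh38).

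NOTUM, a secreted enzyme that strips the lipid Wnt ligands need to bind their receptor, depended on which control it was set against. It had 19.2, 18.8 and 21.4 CPM in siIDT, sino4 and siSMPLT, against 16.4 CPM in siL2 and 39.2 CPM in siNT. The USP17 siRNA libraries were all above siL2 and all below siNT, so the groups overlapped. The controls were 2.38-fold apart, and NOTUM was the only gene of the set in which they were at least 1.5-fold apart, as they were in 12.9% of all genes tested. Its log2 fold change was -0.49 ± 0.29 (SE), -0.99 without siL2, where it was past the threshold, and 0.27 without siNT, where it was not. NOTUM lies on chromosome 17 from 81952507 to 81961840 on the minus strand (GRCh38).

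DKK1, a secreted protein that binds LRP5 and LRP6 and blocks them, was barely detected. It had 39, 35 and 31 reads in siIDT, sino4 and siSMPLT, against 53 and 47 reads in siL2 and siNT. All USP17 siRNA libraries were below both controls, at 0.97 to 1.19 CPM against 1.33 and 1.55 CPM. Its log2 fold change of -0.41 ± 0.22 (SE) was not past the threshold, and was not detectable as a difference at this depth. PRKG1-AS1 overlaps the start of DKK1 on the other strand, and the counts used here are those on the gene's own strand. DKK1 lies on chromosome 10 from 52314296 to 52318042 on the plus strand (GRCh38).

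**Figure D2:**
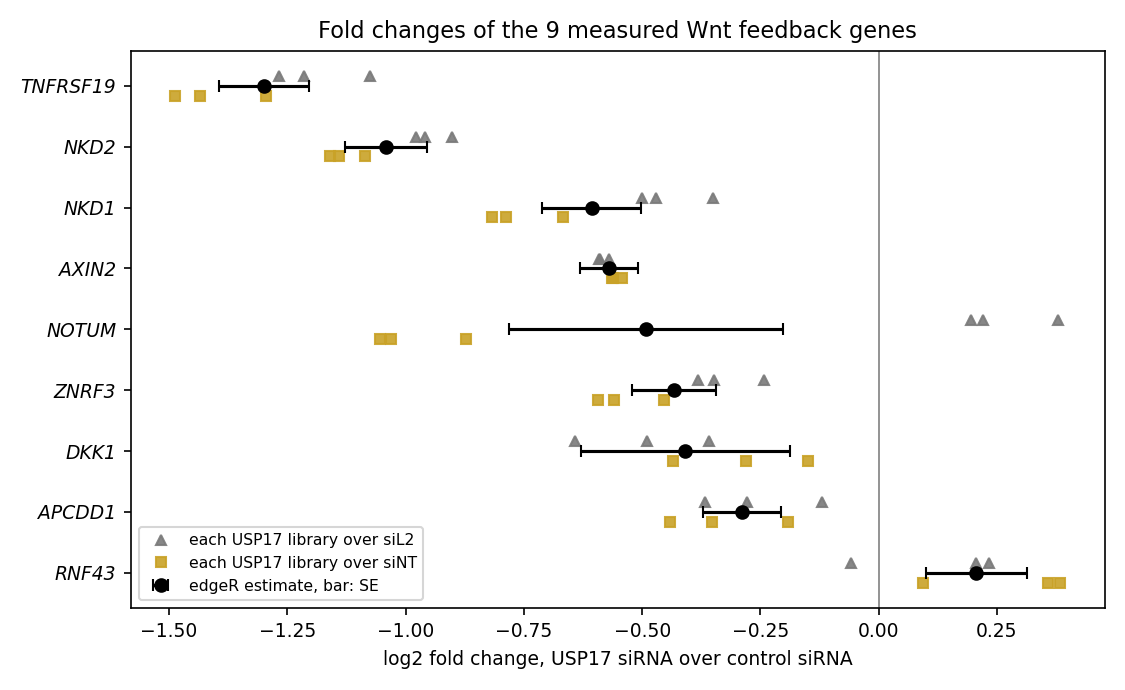
Log2 fold change, USP17 siRNA over control siRNA (horizontal axis), of the 9 measured genes. Black points are edgeR estimates with their SE, and the small points set each USP17 siRNA library over siL2 (triangles) or siNT (squares). For TNFRSF19, NKD2, NKD1, AXIN2, ZNRF3, DKK1 and APCDD1 all 6 small points lie below 0, while for NOTUM the triangles and squares fall on opposite sides.

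Per length, APCDD1 was the most abundant of the set and DKK1 the least abundant of those detected. In TPM, which adjusts for transcript length, the control libraries siL2 and siNT ordered the genes as APCDD1 (327 and 361), AXIN2 (211 and 216), RNF43 (92.3 and 79.1), NKD2 (58.4 and 66.7), TNFRSF19 (35.7 and 41.8), ZNRF3 (20.8 and 24.9), NOTUM (11.9 and 25.03), NKD1 (10.4 and 14.4) and DKK1 (2.34 and 1.97). Of neighbours in that order, ZNRF3 and NOTUM, and NOTUM and NKD1, had overlapping values. In siIDT, sino4 and siSMPLT the TPM of TNFRSF19 was 15.3, 15.2 and 17.4, and that of ZNRF3 was 16.8, 16.1 and 17.9. The ranges of TNFRSF19 and ZNRF3 thus overlapped with USP17 siRNA. Within siIDT, sino4 and siSMPLT, TNFRSF19 was 0.91, 0.95 and 0.97 times ZNRF3, whereas in siNT and siL2 it was 1.68 and 1.72 times ZNRF3. NOTUM, at 12.1 to 15.3 TPM with USP17 siRNA, also overlapped TNFRSF19 there. Apart from these pairs, the order with USP17 siRNA was that of the controls.

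**Figure D3:**
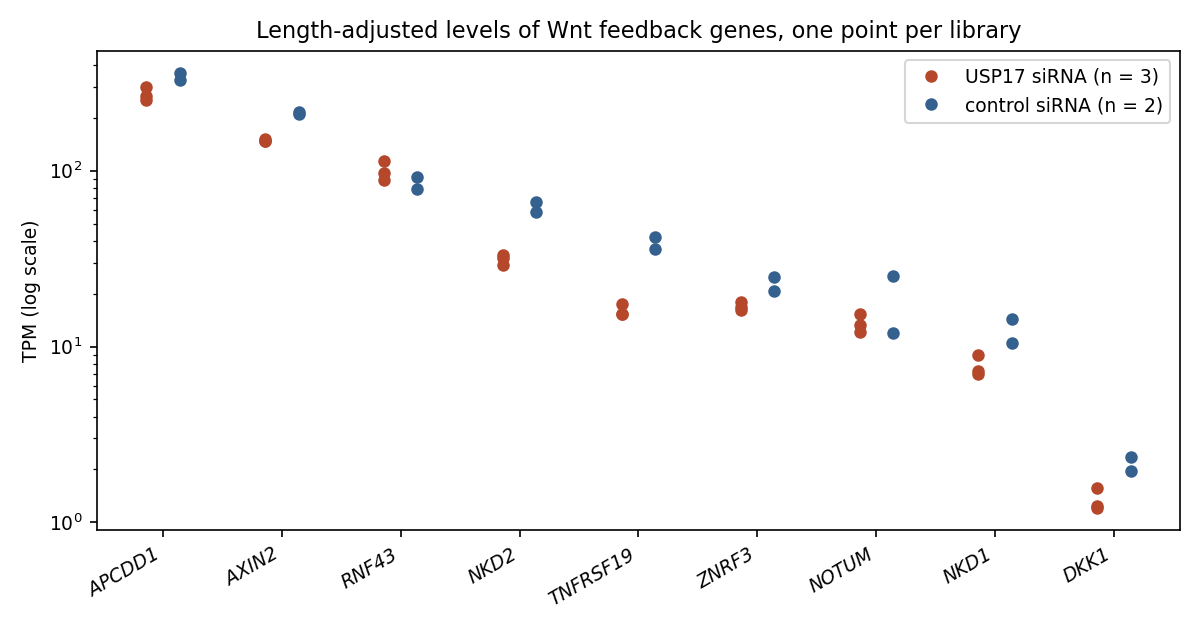
TPM (vertical axis, log scale) of the 9 detected genes, ordered by their control mean, with 1 point per library and USP17 siRNA (red) left of control siRNA (blue). The red points of TNFRSF19, at 15.2 to 17.4 TPM, overlap in range with those of ZNRF3, while its blue points lie above.

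DKK4, a relative of DKK1 that also binds LRP5 and LRP6, had 0 reads and a TPM of 0 in all 5 libraries. Counting error alone leaves room for 3 reads in a library, which is 0.0918 to 0.0938 CPM with USP17 siRNA and 0.0876 and 0.0849 CPM in siL2 and siNT. No fold is given. DKK4 lies on chromosome 8 from 42374068 to 42377232 on the minus strand (GRCh38).

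Reads on the opposite strand of the members were few, at most 2.86% of those on the gene's own strand in any library. They came to 0.93% to 1.02% of AXIN2's reads with USP17 siRNA and to 1.07% and 1.13% with control siRNA, where the median over all genes tested was 0.96%. For TNFRSF19 there were 7 such reads in each USP17 siRNA library and 16 and 17 in siL2 and siNT. RSEM's effective length, which averages a gene's transcripts by their estimated abundance, bears on transcript mix. It goes into the TPM known when the genes were chosen, so it is not independent of that choice. It did not overlap between groups for AXIN2 (3350 to 3378 bases with USP17 siRNA, 3401 and 3574 with control siRNA) and for APCDD1 (2046 to 2107 bases with USP17 siRNA, 1917 and 2007 with control siRNA). Non-overlap of this kind was found in 38.8% of the genes tested with TPM above 0 in every library, so 2 of 9 was not above the background.

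In these libraries, genes whose 3' untranslated region held the 7-base sequence ATCACTC had a median log2 fold change of -0.12, against -0.01 for the other genes searched, and carriers of TCACTCA had -0.08. Both sequences were picked earlier for the low values of their carriers in the same libraries. ATCACTC occurred in 7.95% and TCACTCA in 12.2% of 12465 genes searched, taking each gene's longest annotated region. Of the 10 feedback genes 7 held neither, including AXIN2, NKD2, ZNRF3 and TNFRSF19. The share of all genes searched that held neither was not counted, so nothing is read from that number. NKD1 held both, in a region of 15468 bases, while TCACTCA alone was found in RNF43 and APCDD1. The region of NKD1 was the longest of the set, followed by ZNRF3 at 3865 bases, and a longer region has more room for any 7-base sequence. The beta-catenin gene CTNNB1 held ATCACTC alone. The sites are shown because they mark which members carry the sequence, in capitals, with 10 bases on each side (GENCODE 29).
NKD1, base 9098: gtttgatgggATCACTCtgttccttcc
NKD1, base 9813: tagttgattcTCACTCAtcgcagtagt
RNF43, base 1305: gtcgtgactgTCACTCAgggtaacaac
APCDD1, base 1110: acatactggcTCACTCAgtgtctttcc
CTNNB1, base 777: ctaattcataATCACTCtaattaattg
The part of these sites in the values of NKD1, RNF43, APCDD1 and CTNNB1 was not tested.

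Other genes of the pathway moved in both directions. Of 118 other Wnt genes on 5 lists 81 were tested, and 6 fell and 5 rose in edgeR's test. The lists overlap in LGR5. The joint median log2 fold change of the tested genes was -0.10. Like the members, these lists were drawn up with earlier results of these data known. Their calls and adjusted p-values are therefore a description. The background of 10.5% of genes past the threshold applies to each of the lists too. Among 25 other Wnt inhibitors 13 were tested, with 1 lower and 1 higher. DACT1, a Dishevelled-binding inhibitor, fell to 2.42, 1.86 and 2.38 CPM in siIDT, sino4 and siSMPLT, against 4.41 and 3.79 CPM in siL2 and siNT (log2 fold change -0.89, adjusted p = 0.0218, edgeR). CXXC4, another Dishevelled-binding inhibitor, rose to 84.0 ± 6.37 CPM (SD, n = 3) with USP17 siRNA, against 64.8 ± 0.85 CPM (SD, n = 2) with control siRNA (0.37, edgeR adjusted p = 0.0320). IGFBP4 (-0.67, edgeR adjusted p = 0.0564) and DACT3 (-0.92, edgeR adjusted p = 0.0746) did not pass. IGFBP4 passed without siL2 (-0.78) and with DESeq2's Wald test (-0.67), and DACT3 without siNT (-1.18). The list's median was -0.23. Both calls were lost when any USP17 siRNA library was left out.

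Receptors, on which RNF43, ZNRF3, DKK1 and TNFRSF19 act, made up a further list. Of 23 receptors and R-spondins 17 were tested, and LGR5, the R-spondin receptor of intestinal stem cells, was the only one past the threshold. Among all genes tested 10.5% passed, so nothing is read from that count. It fell to 5.20, 4.65 and 6.91 CPM in siIDT, sino4 and siSMPLT, against 9.43 and 13.8 CPM in siL2 and siNT (log2 fold change -1.06, edgeR adjusted p = 0.0197), and lost its call without siIDT or without sino4. FZD6 (-0.38, edgeR adjusted p = 0.0941), LRP5 (-0.17, 0.262) and RSPO2 (-0.55, 0.305) did not pass. FZD6 passed without siNT (-0.59, edgeR adjusted p = 0.00537) and stood at -0.14 without siL2, while RSPO2 stood at -0.11 without siL2 and -0.90 without siNT. The list's median was -0.15.

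Of 22 genes for Wnt ligands and their secretion 12 were tested, with 1 lower and 1 higher and a median of -0.09. WNT11 fell to 8.09 ± 0.80 CPM (SD, n = 3) with USP17 siRNA, against 13.6 ± 2.37 CPM (SD, n = 2) with control siRNA (-0.75, edgeR adjusted p = 0.0187). WNT5A, a ligand known mainly for signalling without beta-catenin, rose to 73.9 ± 5.86 CPM (SD, n = 3), against 57.0 ± 1.54 CPM (SD, n = 2) with control siRNA (0.38, edgeR adjusted p = 0.0348). Both calls were lost when any USP17 siRNA library was left out, and that of WNT5A without siNT as well. WNT10B (-0.34, edgeR adjusted p = 0.0791) and WNT8B (-0.90, 0.163) did not pass. Without siL2 both passed (-0.44 for WNT10B and -1.33 for WNT8B), WNT10B also with DESeq2's Wald test (-0.35), whereas without siNT WNT8B stood at -0.29.

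Among 21 genes of Dishevelled and the destruction complex, the setting in which the NKD proteins and AXIN2 work, 20 were tested, with 1 lower and 1 higher and a median of 0.05. CTNNB1 fell to 198, 200.3 and 200.5 CPM in siIDT, sino4 and siSMPLT, against 355 and 326 CPM in siL2 and siNT (-0.77, edgeR adjusted p = 0.00215). CSNK1G1, a casein kinase 1, rose by 0.42 on the log2 scale (edgeR adjusted p = 0.0252), a call lost without siIDT or without sino4. DVL1 (-0.25, edgeR adjusted p = 0.0785) and CSNK1D (0.20, 0.156) did not pass. DVL1 passed with DESeq2's Wald test (-0.25), and CSNK1D passed without siL2 (0.31) and stood at 0.10 without siNT.

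Among other Wnt-responsive genes some were lower and some higher with USP17 siRNA. Of 28 listed 20 were tested, with FGF20, LGR5 and PROX1 (-1.39) lower, TBX3 and ID2 higher, and a median of -0.17. FGF20, a growth factor, fell to 0.144 ± 0.071 CPM (SD, n = 3) with USP17 siRNA, against 1.26 ± 0.054 CPM (SD, n = 2) with control siRNA, at few reads (edgeR adjusted p = 0.0048). TBX3, a T-box transcription factor, rose to 135 ± 2.08 CPM (SD, n = 3), against 101 ± 2.04 CPM (SD, n = 2) with control siRNA (0.42, edgeR adjusted p = 0.0127). ID2, an inhibitor of basic helix-loop-helix factors, rose by 0.72 (edgeR adjusted p = 0.0348). MYC had 3225, 3242 and 3331 CPM in siIDT, sino4 and siSMPLT, against 3619 and 4214 CPM in siL2 and siNT (-0.26, edgeR adjusted p = 0.0519). MYC passed in 5 alternatives: with DESeq2's size factors (edgeR adjusted p = 0.0489), with DESeq2's Wald test (adjusted p = 0.0363), without the filter on low counts (edgeR, 0.0430), with unstranded counts (edgeR, 0.0459) and without siL2 (-0.37, edgeR, 0.00376). Without siNT its log2 fold change was -0.15 and it did not pass. The calls of TBX3, ID2 and PROX1 were lost without siIDT and without sino4, that of ID2 also without siSMPLT, and that of PROX1 also without siNT and with RSEM counts.

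**Figure D4:**
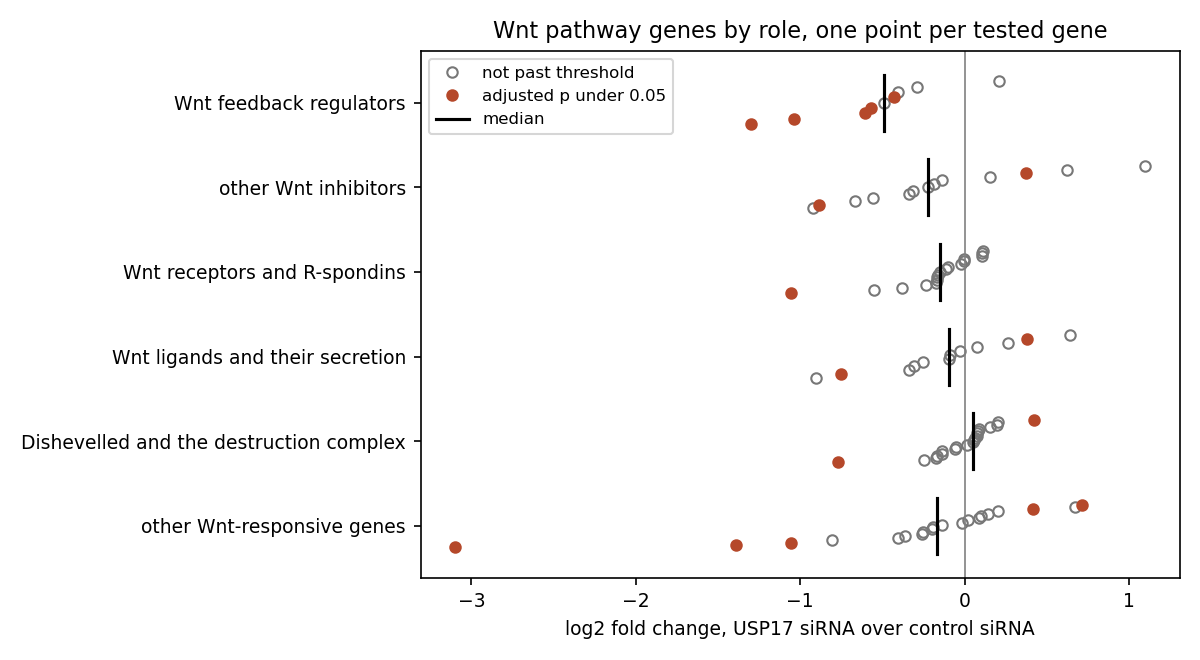
Log2 fold change, USP17 siRNA over control siRNA (horizontal axis), of tested Wnt genes by role, 1 point per gene, filled where the edgeR adjusted p was under 0.05, with a bar at each median. The feedback genes, chosen with these values known, have a median of -0.49, and the other lists lie between -0.23 and 0.05.

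The genes whose profile over the 5 libraries was nearest to AXIN2 and to TNFRSF19 were found by the Euclidean distance between log2 CPM centred on each gene's own mean. Only tested genes with an average log2 CPM of at least 1 were searched. Nearest to AXIN2 were METTL6, a tRNA methyltransferase gene, GLDC, of the glycine cleavage system, WARS2, a mitochondrial tRNA synthetase gene, and BLVRB, a biliverdin reductase gene, at distances of 0.04, 0.06, 0.06 and 0.07. METTL6 had 17.3, 18.0 and 17.7 CPM in siIDT, sino4 and siSMPLT, against 26.4 and 25.8 CPM in siL2 and siNT. Nearest to TNFRSF19 was FLOT2, which encodes the membrane scaffold flotillin-2, at 0.12, with 27.3, 28.4 and 30.04 CPM in the USP17 siRNA libraries, against 67.3 and 70.8 CPM in siL2 and siNT. TEX261, TCF3 (the E2A factor, not a TCF/LEF protein) and LANCL1-AS1 followed at 0.25, 0.26 and 0.26. These distances describe 5 libraries and say nothing of shared control.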

How the data were processed

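The tools named per the submitters' processing notes are bcl2fastq 2.20, STAR 2.7.1a and RSEM 1.3.2, with the build GRCh38. No annotation release or strand setting is stated there. The deposited files hold, per library, whole-number read counts per gene (unstranded, own strand, opposite strand), and the authors' RSEM tables with expected counts, TPM and effective length, a per-gene signal in bases. The own-strand counts, 18.7 to 19.9 times the opposite ones, were used. Rows that name no gene (22.8% to 24.4% of reads) were left out. STAR's counts omit multi-mapping and ambiguous reads.

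Symbols were matched by gene ID (42061 of 60651 IDs), and coordinates came from GENCODE 29 on GRCh38. Counts were fitted in R 4.3.3 with edgeR 4.0.16: filterByExpr (minimum count 10, minimum total 15), TMM, quasi-likelihood F test, two-sided, Benjamini-Hochberg over all 16341 genes tested, threshold 0.05. The SE printed with an edgeR log2 fold change is its absolute value divided by the square root of the F statistic. Log2 CPM used a prior count of 2. Tested on simulated data of the same layout (16101 genes), the fit recovered 67.2% of 1.5-fold, 89.6% of 2-fold and 100% of 4-fold changes. Of its 182 calls 11 were false. At these folds 67, 67 and 66 genes were changed, and none of the genes with the lowest counts. The data had 1710 calls, so these shares need not hold there. Intervals for zero counts cover counting error only.

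The members and lists were chosen with earlier results of these data known. Named genes were all members, the 4 tested genes with the smallest p of each of 5 pathway lists, CTNNB1, LGR5, MYC, the USP17L family and the 4 profiles nearest to AXIN2 and to TNFRSF19; PROX1 is named besides, as a called gene of its list. Replicate numbers follow accession order and pair nothing. Alternatives were DESeq2 1.42.0 (its size factors, and its Wald test), no filter on low counts, RSEM expected counts rounded to whole numbers, unstranded counts and leaving out each library.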

Additional observations from a re-analysis of the deposited data

How the results depend on the processing

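Calls moved mainly with the libraries used. Leaving out 1 library gave 130 to 2633 genes past the threshold (130 without sino4, 349 without siIDT, 1041 without siSMPLT, 2430 without siL2 and 2633 without siNT, against 1710 with all), 3 to 7 feedback genes against 5, and 2 to 21 other Wnt genes against 11. The lowest counts came without siIDT or without sino4 and the highest of the Wnt genes without siL2, a fit in which siNT, as the only control, is taken to vary as the USP17 siRNA libraries do. Without siIDT or sino4 the feedback genes past the threshold were AXIN2, NKD2 and TNFRSF19, which also kept their calls in the other 8 alternatives. NOTUM had a log2 fold change of 0.27 without siNT and -0.99 without siL2. DESeq2's Wald test called 17 other Wnt genes and gave FGF20 no adjusted p. DESeq2's size factors, no filter on low counts, RSEM counts and unstranded counts left the count of feedback genes at 5, and that of other Wnt genes at 11 to 13. On RSEM's TPM each measured feedback gene kept its direction. TPM gave AXIN2 a log2 ratio of -0.52 (edgeR -0.57), NKD2 -0.99 (edgeR -1.04) and DKK1 -0.65 (edgeR -0.41). Each of these shifts was at least the gene's SD of log2 CPM over the USP17 siRNA libraries. Shifts of the other measured feedback genes were under theirs. With a prior count of 5, LANCL1-AS1 left the profiles nearest to TNFRSF19. Why the calls moved was not tested. No paired analysis was possible because the labels carry no replicate numbers. Depth limits DKK1 (31 to 53 reads) and DKK4 (0 reads).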
